A study of Homo sapiens with 171 samples.

Results

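OVCA433 is an established human line of epithelial ovarian carcinoma, and this account describes what 48 h of cisplatin did to its transcripts. The members are the 6 OVCA433 cultures of batch 2, chosen by the labelled line, treatment and batch, out of 171 arrays of 167 cultures from 46 lines labelled as ovarian cancer. Of these 6, 3 were untreated and 3 received cisplatin for 48 h after overnight seeding in multi-well plates. The labels set the dose as the concentration that gives the GI50 level of growth inhibition, so the dose may differ between lines, and the concentration used on OVCA433 is not given in the sources used here. The labels call the controls untreated, and do not say whether the numbered cultures were grown on separate days. The p-values measure the spread between numbered cultures within line and treatment, pooled over 18 lines unless stated, and that spread may be technical. One more untreated and 1 more cisplatin culture of OVCA433, from batch 4, served only as a check of direction. The line stands for a single tumour, and bulk RNA from a plate well cannot tell fewer cells of a kind from less RNA per cell.

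Cisplatin is a platinum drug that binds purine bases and crosslinks DNA. The crosslinks stall replication forks and RNA polymerases. Cells answer through checkpoint kinases and, where p53 works, through p53 targets such as CDKN1A, which halts the cycle. Replication-dependent histone genes are transcribed mainly in S phase, and their transcripts are lost when DNA synthesis stops. Damaged or mislocalised DNA and RNA can also start interferon signalling, and shortage of amino acids or misfolded protein starts the integrated stress response.

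Values are log2 RMA expression values, the scale deposited by the authors, and each change is the mean of the 3 cisplatin cultures minus the mean of the 3 untreated ones, given where stated as value ± SE of the limma model. Pairs of OVCA433 cultures correlated at 0.990 to 0.996 across 18417 genes, and cisplatin culture 3 lay farthest from the others. The labelled tissue was checked against its markers: KRT18 and WFDC2 (the antigen HE4) were highest in OVCA433 among the 18 replicated lines before treatment, and EPCAM, KRT7, KRT8, CLDN3 and CLDN4 ranked 2 of 18. MUC16 ranked 3, CDH1 5, KRT19 and PAX8 6 and MUC1 8. By level, MUC16 (6.15) and MUC1 (6.50) lay below the median gene (6.63). Of 7 mesenchymal markers ZEB1 and COL1A2 ranked 18, COL3A1 and PDGFRB 16, COL1A1 14, CDH2 13 and VIM 11, and VIM was at 10.2, above 94.5% of genes. Blood cell markers were PTPRC, CD3D, CD3E, CD14 and LYZ of leukocytes and HBB of red cells. The mean of these 6 lay at 3.96 to 4.22 in untreated and 3.94 to 4.14 in cisplatin cultures. The mean of 4 endothelial markers lay at 4.41 to 4.73 and 4.45 to 4.56. None of these 10 genes passed limma's test.

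Cisplatin changed OVCA433 in both directions, with more genes lower than higher. The largest rises were in NDRG1, STC1 and SLC2A3, and the 15 largest also held the interferon-stimulated genes IFI44L, MX2, IFI6 and RSAD2. The largest falls were in histone genes (H2BC14, H3C12, H2AC4), small nucleolar RNA genes (SNORD14E, SNORD30, SNORA75) and DIO2, which encodes a deiodinase that activates thyroid hormone. Of 34 genes of the replication fork, 15 fell (against 1.83% of all genes), each by less than these.

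Of 18417 genes, 494 passed an adjusted p of 0.05 in limma's moderated test with Benjamini-Hochberg adjustment, 157 higher (0.852% of all genes) and 337 lower (1.83%). At an unadjusted p of 0.05 the number was 2396. In 486 of the 494 the 3 cisplatin values lay all on one side of the 3 untreated values. Over all genes they lay all above in 9.33% and all below in 11.2%. The calls were made on these same values, so this separation is no separate support for them. The largest changes named below were picked among called genes without overlap, so for them the separation was set by the choice. The median size of a called change was 0.45, and only 16 genes rose and 8 fell by 2-fold or more. The spread behind this test came from 107 cultures of 18 lines. With the 6 OVCA433 cultures alone 61 genes passed higher and 54 lower, and 88 of these 115 were among the 494. Without 2 cultures that stood apart in an earlier analysis of these data, cisplatin culture 3 of OVCA420 and cisplatin culture 1 of OVCAR-10, the counts were 259 and 428. Leaving out 1 culture of OVCA433 moved the higher count past 1.5 times for untreated culture 1 (98), untreated culture 2 (103), cisplatin culture 1 (80) and cisplatin culture 3 (82), and the lower count for untreated culture 1 (197), cisplatin culture 1 (170) and cisplatin culture 2 (223).

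The largest rise was in NDRG1, a growth-arrest gene induced by hypoxia, iron shortage and stress. The untreated cultures had NDRG1 at 7.13, 7.38 and 7.34, and the cisplatin cultures at 9.05, 8.67 and 8.89. It was higher by 1.59 ± 0.16 (SE), or 3.01-fold, with an adjusted p of 2.7e-11 in limma, and the groups were separated by more than 1 log2 unit. STC1 encodes stanniocalcin, a secreted glycoprotein involved in calcium and phosphate balance. Values of STC1 were 6.18, 6.06 and 6.37 without and 7.74, 7.51 and 7.63 with cisplatin. Its change was 1.42 ± 0.30 (limma adjusted p = 0.00147). SLC2A3 encodes the glucose transporter GLUT3. SLC2A3 read 8.07, 8.29 and 8.28 in untreated cultures and 9.62, 9.35 and 9.90 after cisplatin. Its change was 1.41 ± 0.29 (limma adjusted p = 0.00119), and in each of these 3 genes the lowest cisplatin culture lay above the highest untreated one.

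**Figure D1:**
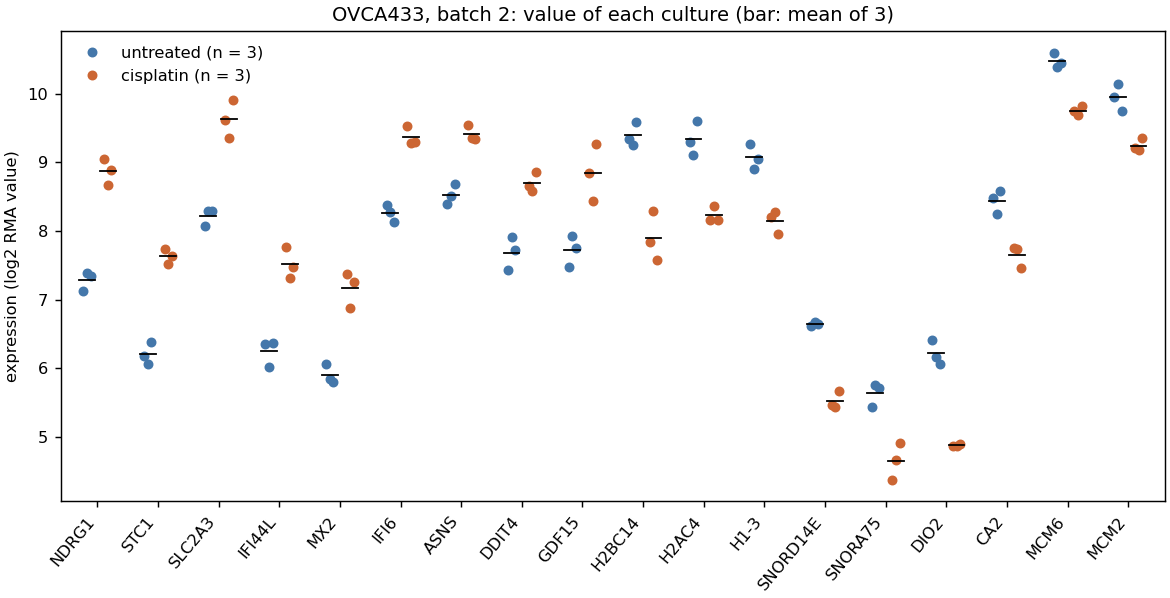
Expression (log2 RMA value, vertical axis) of 18 genes in each of the 3 untreated and 3 cisplatin cultures of OVCA433; points are cultures and bars the mean of 3. In every gene plotted the 2 groups do not overlap, from NDRG1 (change 1.59) to H2BC14 (change -1.49). Genes named as largest changes were picked among called genes without overlap, so this separation is no separate support.

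Other members of the hypoxia and glycolysis list moved less. The median change of its 19 measured genes was 0.14 against -0.00063 over all genes. Of the 19, 3 rose (against 0.852% of all genes) and 0 fell. Besides NDRG1 these were VEGFA, the angiogenic growth factor (0.71 ± 0.12), and ADM, which encodes the vasodilator adrenomedullin (0.55 ± 0.11). None of the glycolytic enzymes on the list passed. With the OVCA433 cultures alone 1 of the 19 passed. SLC2A3 and STC1 were not on that list. P4HA1, PDK1, BHLHE40 and DDIT4 were also off it and called higher. P4HA1, BHLHE40 and DDIT4 hold TACGTG, the letters of the hypoxia response element, in the 250 bases before the start. These letters occur in 3.36% of genes called higher and in 2.83% of all promoters.

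Interferon-stimulated genes were among those that rose. Of 25 measured, 8 rose (against 0.852% of all genes) and 0 fell. In 18 of 25 all cisplatin values lay above all untreated values, against 9.33% of all genes. Their median change was 0.46. The 8 were MX2 and RSAD2 (viperin), which block viral replication, OAS1 and OAS2, which make the second messenger that activates RNase L, RIGI, a sensor of viral RNA, IRF9, a subunit of the interferon-activated transcription factor ISGF3, and IFI6 and IFI44L. The mean over the 25 genes was 7.71, 7.59 and 7.57 in untreated and 8.23, 8.03 and 8.19 in cisplatin cultures. Without the 2 cultures of other lines that stood apart, 12 of the 25 rose.

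The stretches upstream of IFI6 and IFI44L are shown because the interferon-stimulated response element core GAAANNGAAA, in capitals, occurs repeatedly in each. Sequences are from RefSeq on GRCh38.p14, 5′ to 3′ on the strand of the gene, and were searched on both strands in the 250 bases before the start.
IFI6: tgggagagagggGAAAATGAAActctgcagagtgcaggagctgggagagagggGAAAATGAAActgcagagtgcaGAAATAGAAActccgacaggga
IFI44L: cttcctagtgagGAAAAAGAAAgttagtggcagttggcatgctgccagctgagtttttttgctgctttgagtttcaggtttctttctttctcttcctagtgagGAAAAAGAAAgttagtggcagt
The IFI6 stretch is chr1:27672264-27672360 on the minus strand, 168 to 72 bases before the start, with 3 matches. The IFI44L stretch is chr1:78620272-78620396 on the plus strand, 176 to 52 bases before the start, with 2 matches. The core was present in 12 of 18 interferon-stimulated genes with a sequence and in 2.57% of 14239 promoters. Among the genes called here it was in 2 of the 6 interferon-stimulated genes with a sequence and in 3.36% of all called higher. Not one of the other called members with a sequence (OAS1, RIGI, IRF9, RSAD2) has these letters in this window.

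The untreated cultures had IFI6 at 8.38, 8.27 and 8.13, and the cisplatin cultures at 9.53, 9.28 and 9.30. The change was 1.11 ± 0.14 (limma adjusted p = 4.88e-08). Values of IFI44L were 6.36, 6.01 and 6.36 without and 7.77, 7.32 and 7.47 with cisplatin. Here the change was 1.28 ± 0.21 (limma adjusted p = 3.21e-05). Both were higher in each cisplatin culture than in any untreated one. MX2 read 6.07, 5.85 and 5.80 in untreated cultures and 7.37, 6.88 and 7.25 after cisplatin. MX2 changed by 1.26 ± 0.23 (limma adjusted p = 0.000272), with cisplatin culture 2 the lowest of the treated. RSAD2 changed by 1.02 ± 0.19, OAS2 by 0.94 and OAS1 by 0.87. Members below the threshold included MX1 at 0.71 (limma adjusted p = 0.11) and IFIT1 at 0.61 (limma adjusted p = 0.127), both with groups that did not overlap. IFITM1, an interferon-induced membrane protein that blocks viral entry, was not on the list and rose by 1.09, as did IDO1, the tryptophan-degrading enzyme, by 1.01, and SLAMF7, a receptor of immune cells, by 1.12. Leaving out cisplatin culture 1 took the call from IDO1 (limma adjusted p = 0.0766).

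Of 20 measured genes of the integrated stress and unfolded protein responses, 5 rose (against 0.852% of all genes) and 0 fell. Their median change was 0.23, and 3 rose with the OVCA433 cultures alone. ASNS makes asparagine. The untreated cultures had ASNS at 8.38, 8.51 and 8.69, and the cisplatin cultures at 9.54, 9.36 and 9.34. It rose by 0.88 ± 0.11 (limma adjusted p = 1.93e-08), and every cisplatin culture lay above every untreated one. DDIT4, which restrains the growth kinase mTORC1, rose by 1.01 ± 0.16, DDIT3 (the factor CHOP) by 0.80, PSAT1, of serine synthesis, by 0.60, and PPP1R15A, which directs dephosphorylation of eIF2 alpha, by 0.50. The PPP1R15A call was lost without untreated culture 1 or 3 or cisplatin culture 1 or 3 (limma adjusted p up to 0.12). The amino acid response element of ASNS, TGATGNAA, is shown in capitals, as the letters that ATF4 is known to bind in stressed cells.
ASNS: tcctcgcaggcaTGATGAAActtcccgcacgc
It lies in chr7:97872457-97872488 on the minus strand, 80 to 49 bases before the start. These letters occur in 3 of 20 promoters of the list (ASNS, CHAC1, HERPUD1), in 4.2% of genes called higher and in 2.19% of all promoters.

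Few p53 targets, the textbook response to platinum damage, passed the test. Of 34 measured, 2 rose (5.88%, against 0.852% of all genes) and 0 fell. The 2 were GDF15, a secreted stress cytokine, and RRM2B, a p53-induced subunit of ribonucleotide reductase (0.47 ± 0.12). Most of the list still moved upward, with 31 of the 34 changes positive and 12 higher at an unadjusted p under 0.05 in limma. Values of GDF15 were 7.47, 7.93 and 7.75 without and 8.84, 8.43 and 9.27 with cisplatin. GDF15 rose by 1.13 ± 0.23 (limma adjusted p = 0.000988), with cisplatin culture 3 the highest and culture 2 the lowest of the treated. CDKN1A read 8.69, 8.79 and 8.57 in untreated cultures and 9.08, 8.87 and 9.31 after cisplatin. CDKN1A, the cell-cycle inhibitor p21, was at 0.41 ± 0.15 (limma adjusted p = 0.136), with groups that did not overlap. MDM2, the ligase that degrades p53, was at 0.40 ± 0.12 (limma adjusted p = 0.0588), and the death receptor FAS at 0.28 (limma adjusted p = 0.406). In 16 of the 34 all cisplatin values lay above the untreated ones, against 9.33% of all genes, and the median change was 0.20. The count of 2 became 6 without the 2 cultures of other lines that stood apart, and 1, GDF15, without untreated culture 1 or 3 or cisplatin culture 1 or 3, where RRM2B was lost (limma adjusted p up to 0.17).

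**Figure D2:**
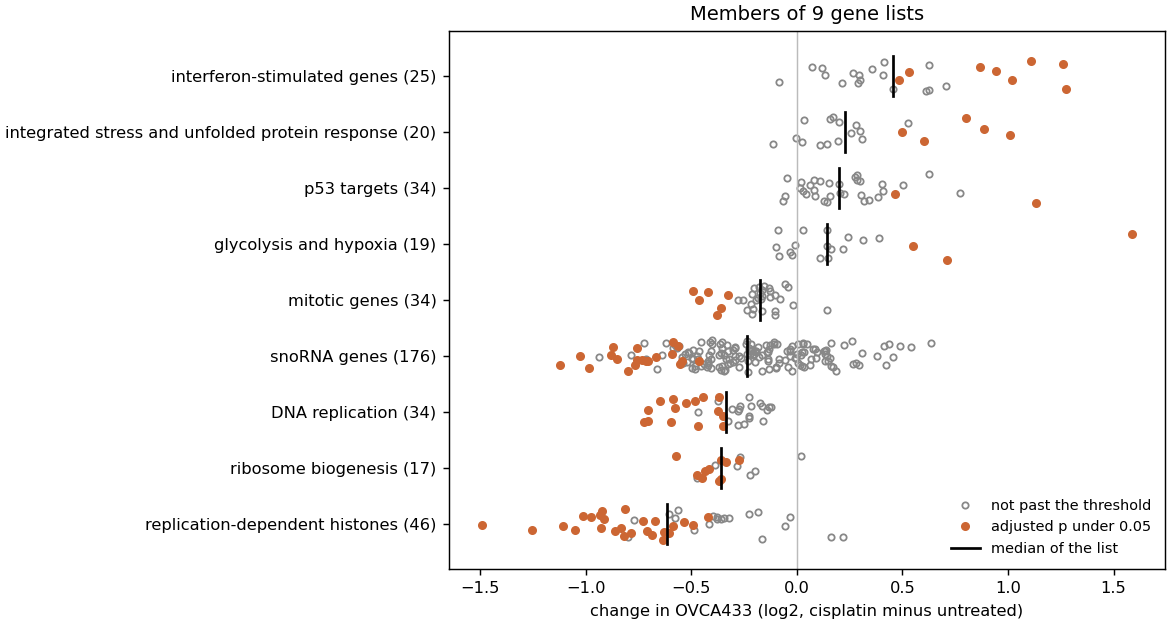
Change of each member (log2, cisplatin minus untreated, horizontal axis) of 9 gene lists, with the number measured in parentheses; filled points passed an adjusted p of 0.05, open points did not, and the black bar is the median of the list. Histones (median -0.62) lie lowest and interferon-stimulated genes (median 0.46) highest.

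Replication-dependent histone genes had the lowest median change of the lists used. Of 46 measured, 26 fell (against 1.83% of all genes) and 0 rose. In 37 all cisplatin values lay below all untreated ones, against 11.2% of all genes. The median change was -0.62, and members of all 5 histone classes, H1, H2A, H2B, H3 and H4, were among the 26. The mean over the 46 genes was 7.69, 7.63 and 7.89 in untreated and 7.16, 7.21 and 6.998 in cisplatin cultures. The untreated cultures had H2BC14 at 9.34, 9.25 and 9.59, and the cisplatin cultures at 7.84, 8.29 and 7.58. H2BC14, a histone H2B gene, fell by 1.49 on the log2 scale, or 2.81-fold (SE 0.16; limma adjusted p = 5.55e-10). H3C12 fell by 1.25, H2AC4 by 1.11, H4C13 by 1.01, H4C2 by 0.98 and the linker histone H1-3 by 0.93. Histone genes are near copies of each other, so probe sets can share signal and single members are uncertain. Without cisplatin culture 3 the count was 13, and without untreated culture 3 it was 16, and with the OVCA433 cultures alone it was 15. Among those named, H4C13 was lost without untreated culture 3 or cisplatin culture 2 or 3 (limma adjusted p up to 0.182) and H1-3 without untreated culture 1 or cisplatin culture 3 (up to 0.0743).

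The H2BC14 stretch is shown because its CCAAT boxes, in capitals on either strand (CCAAT or ATTGG), stand close together.
H2BC14: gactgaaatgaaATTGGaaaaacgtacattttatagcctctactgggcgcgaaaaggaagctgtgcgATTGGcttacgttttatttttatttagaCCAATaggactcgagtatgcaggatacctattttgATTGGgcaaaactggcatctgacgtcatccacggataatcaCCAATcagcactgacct
It is chr6:27814774-27814961 on the plus strand, 248 to 61 bases before the start, with 5 matches. A CCAAT box was present in 22 of the 23 called histone genes with a sequence, in 37 of all 41 (90.2%) and in 34.4% of all promoters. TATAAA was present in 70.7% of the 41 and in 8.6% of all promoters.

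Of 34 measured genes of the replication fork, 15 fell (against 1.83% of all genes) and 0 rose. All 34 changes were negative, with a median of -0.34. The largest were in the MCM helicase, which opens DNA ahead of the fork. Values of MCM6 were 10.60, 10.39 and 10.45 without and 9.75, 9.69 and 9.83 with cisplatin. MCM6 fell by 0.72 (SE 0.079; limma adjusted p = 4.17e-10). MCM4 read 10.08, 10.09 and 10.01 in untreated cultures and 9.46, 9.35 and 9.24 after cisplatin. MCM4 fell by 0.71 (SE 0.08; limma adjusted p = 1.25e-09). MCM2 fell by 0.70 and MCM5 by 0.65, and in these 4 subunits the groups did not overlap. The sliding clamp PCNA was at -0.27 and the ribonucleotide reductase subunit RRM2 at -0.12, neither past the threshold; both were chosen after their values were seen. With the 6 OVCA433 cultures alone 5 of the 34 passed.

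The MCM6 stretch is shown for its pair of E2F sites, each of which reads TTTGGCGC on the strand of the gene and TTTCGCGC on the other strand, with 4 bases shared, so that the 4 matches form 2 runs in capitals.
MCM6: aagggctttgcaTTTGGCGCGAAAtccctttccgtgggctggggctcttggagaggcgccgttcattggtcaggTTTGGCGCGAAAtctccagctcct
It is chr2:135876510-135876607 on the minus strand, 164 to 67 bases before the start. At least 1 of TTTCGCGC, TTTGGCGC and TTTCCCGC was present in 6 of the 12 called replication genes with a sequence, in 12 of all 30, in 26 of 270 genes called lower (9.63%) and in 3.24% of all promoters.

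Fewer of the other cell-cycle genes passed. Over all genes 1.83% were called lower. Of 34 mitotic genes 6 fell and 0 rose (median -0.18), among them CDC20, which activates the anaphase-promoting complex (-0.49 ± 0.10), and the kinases PLK1 (-0.46 ± 0.097) and BUB1 (-0.38 ± 0.067). CCNB1, the mitotic cyclin, was at -0.13 (limma adjusted p = 0.53). With the OVCA433 cultures alone 0 of the 34 passed. Of 19 G1/S regulators 2 fell, the repressor E2F8 (-0.52) and the phosphatase CDC25A (-0.44). Of 19 Fanconi and homologous recombination genes 3 fell, RAD54L (-0.46), BLM (-0.46) and FANCC (-0.38), of 15 checkpoint genes MDC1 (-0.52) and RAD9A (-0.34), and of 11 histone chaperones NASP (-0.45) and CHAF1A (-0.36). Calls were lost without untreated culture 1 for CDC25A, BLM and RAD9A, without untreated culture 2 for BLM, FANCC, RAD9A and CHAF1A, and without untreated culture 3 for BLM and FANCC. They were lost without cisplatin culture 1 for CDC25A, BLM, FANCC and RAD9A, without cisplatin culture 2 for BLM, FANCC, RAD9A and CHAF1A, and without cisplatin culture 3 for BLM and FANCC. The limma adjusted p then reached 0.169 for BLM, 0.352 for FANCC, 0.241 for RAD9A, 0.0977 for CHAF1A and 0.0907 for CDC25A. BIRC5 (survivin), which guards mitosis and blocks caspases, fell by 0.44 on the probe set used. That call was lost with the mean of its probe sets (-0.25, limma adjusted p = 0.228) and with the OVCA433 cultures alone (limma adjusted p = 0.0827).

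Of 17 ribosome biogenesis genes 10 fell (against 1.83% of all genes) and 0 rose (median -0.36). They included UTP20 and NOLC1, which work in the nucleolus on ribosomal RNA (-0.57 ± 0.11 and -0.45 ± 0.089), and POLR1B, a subunit of RNA polymerase I (-0.47 ± 0.12). Of 15 ribosomal protein genes 0 passed in limma, and 0 had an unadjusted p under 0.05, with RPL5 at 0.14 and RPS3 at -0.038. Without untreated culture 2 the count of 10 was 5, without cisplatin culture 1 it was 6, and with the OVCA433 cultures alone it was 1. POLR1B was lost without untreated culture 2 or cisplatin culture 1 or 2 (limma adjusted p up to 0.101).

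Small nucleolar RNAs guide chemical modification of ribosomal RNA and are mostly cut from introns of host genes. This set was chosen after the values were seen. Of 176 measured, 20 fell (11.4%, against 1.83% of all genes) and 0 rose, and the median was -0.24. The untreated cultures had SNORD14E at 6.62, 6.67 and 6.64, and the cisplatin cultures at 5.47, 5.43 and 5.66. SNORD14E fell by 1.12 (SE 0.23; limma adjusted p = 0.000926), with no overlap between the groups. SNORD30 fell by 1.03, SNORA75 by 0.99 and SNORD52 by 0.88, the last of these lost without cisplatin culture 1 (limma adjusted p = 0.114). For 11 of the 20 a measured gene spans them, 9 genes in all, whose own changes ran from -0.37 to 0.32 with a median of -0.13. Only NCL of these 9, the nucleolin gene that spans SNORA75, fell (-0.37 ± 0.068). HSPA8, a constitutive chaperone gene that spans SNORD14C and SNORD14E, was at -0.15 (limma adjusted p = 0.223). The probe sets cannot tell a mature small RNA from unspliced host transcript.

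Single genes outside these groups also moved. Values of DIO2 were 6.42, 6.16 and 6.06 without and 4.87, 4.87 and 4.89 with cisplatin. DIO2 fell by 1.34 (SE 0.17; limma adjusted p = 3.32e-08), and its 3 cisplatin values were nearly equal. CA2, a carbonic anhydrase, fell by 0.79 and BARX2, a homeobox gene of epithelia, by 0.64. SAT1, which breaks down polyamines, rose by 1.15 ± 0.14, while ODC1, which starts their synthesis, fell by 0.35. SERPINA3, an acute-phase protease inhibitor, rose by 0.98, ARRDC3, a regulator of receptor trafficking, by 0.93, AMIGO2, an adhesion protein, by 1.06, and NOG, the BMP antagonist noggin, by 1.10. ID3, a BMP target, fell by 0.61. MUC1, the epithelial mucin, rose by 0.96 ± 0.29 (limma adjusted p = 0.0446), a call lost without any culture other than untreated culture 3 (limma adjusted p up to 0.223). BARX2 was lost without untreated culture 3 or cisplatin culture 1 or 3 (up to 0.167) and ODC1 without untreated culture 1 or 3 or cisplatin culture 1 or 3 (up to 0.0788).

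Further lists had 1 to 3 calls each, where 0.852% of all genes were called higher and 1.83% lower. STARD4, a sterol carrier, rose by 0.43, the complement regulator CD46 by 0.36, MR1, which presents microbial metabolites, by 0.60, and the early genes ATF3 and DUSP5 by 0.47 and 0.42. The oxidative stress genes SRXN1 and NQO1 fell by 0.40 and 0.35, the NF-kB inhibitor NFKBIE by 0.46, the heat shock gene HSPH1 by 0.28, and the long genes STAG1, SCFD2 and GPHN by 0.50, 0.42 and 0.40. NFKBIE was the only call among 25 measured NF-kB targets, and its list leaned the other way, with 19 of the 25 changes positive (median 0.14). Each of these 12 calls was lost without at least 1 culture. They were lost without untreated culture 1 for CD46, ATF3, DUSP5, SRXN1, NQO1 and HSPH1, without untreated culture 2 for CD46, MR1 and GPHN, and without untreated culture 3 for DUSP5, SRXN1, NQO1, HSPH1 and GPHN. They were lost without cisplatin culture 1 for CD46, MR1, DUSP5, NQO1, NFKBIE, HSPH1 and SCFD2, without cisplatin culture 2 for ATF3, DUSP5, SRXN1, HSPH1, STAG1 and GPHN, and without cisplatin culture 3 for STARD4, DUSP5 and NQO1. The limma adjusted p reached at most 0.266 in these.

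No member passed in limma among 10 death receptor genes, 10 pro-apoptotic BCL2 genes, 13 nucleotide excision repair genes, 8 translesion synthesis genes, 18 platinum transport and detoxification genes, 11 EGF receptor genes, 25 chemokines and cytokines, 10 YAP targets, 17 oxidative phosphorylation genes, 14 lysosomal genes, 18 keratin and differentiation genes, 21 epithelial genes, 24 mesenchymal genes, 14 leukocyte markers, 11 endothelial markers and 11 housekeeping genes. Of the 248 different genes in these 16 lists and the ribosomal proteins, 21 had an unadjusted p under 0.05, 17 of them higher and 4 lower. Over all 18417 genes 2396 had such a p. Only 0.852% of all genes were called higher and 1.83% lower, so a short list may hold no call at that general rate. In these lists BAX was at -0.055, TNFRSF10B at 0.042, DDB1 at -0.098, POLH at 0.061, MT2A at 0.05 and GAPDH at -0.0026. CXCL1, a neutrophil-attracting chemokine, was at 0.71 with groups that did not overlap (limma adjusted p = 0.496), and passed with the OVCA433 cultures alone (limma adjusted p = 0.0373). The YAP target ANKRD1 was likewise at 0.72 ± 0.52 with groups that did not overlap (limma adjusted p = 0.645, and 0.0422 with the OVCA433 cultures alone). The epithelial genes EPCAM and CDH1 were at 0.25 and -0.033, VIM at 0.45 and MUC16, which encodes the antigen CA-125, at 0.36, none past the threshold.

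The batch 4 pair moved mostly the same way. Of the 494 called genes 449 (90.9%) had the same sign there, 141 of 157 higher and 308 of 337 lower, against 59.7% of all 18417 genes. With 1 culture on each side it has no replicate check. NDRG1 differed by 1.17 in that pair, SLC2A3 by 1.30, IFI44L by 1.197, DIO2 by -1.61 and H2BC14 by -0.75. Of the called genes named here, IDO1 (-0.034), H3C8 (0.053), BARX2 (0.046) and NFKBIE (0.05), and PES1 of ribosome biogenesis (0.21), did not keep their batch 2 direction. Of the lists, 23 of 25 interferon-stimulated genes, 41 of 46 histones and 29 of 34 replication genes had the batch 2 sign. Values of batch 4 are on a lower scale, with an upper quartile of 6.46 to 6.49 against 7.92 to 8.01, so levels were not set across batches. The untreated batch 4 profile, centred per gene, correlated at 0.78 with OVCA433 of batch 2 and at 0.57 with OVCA429, the next of 18 lines.

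**Figure D3:**
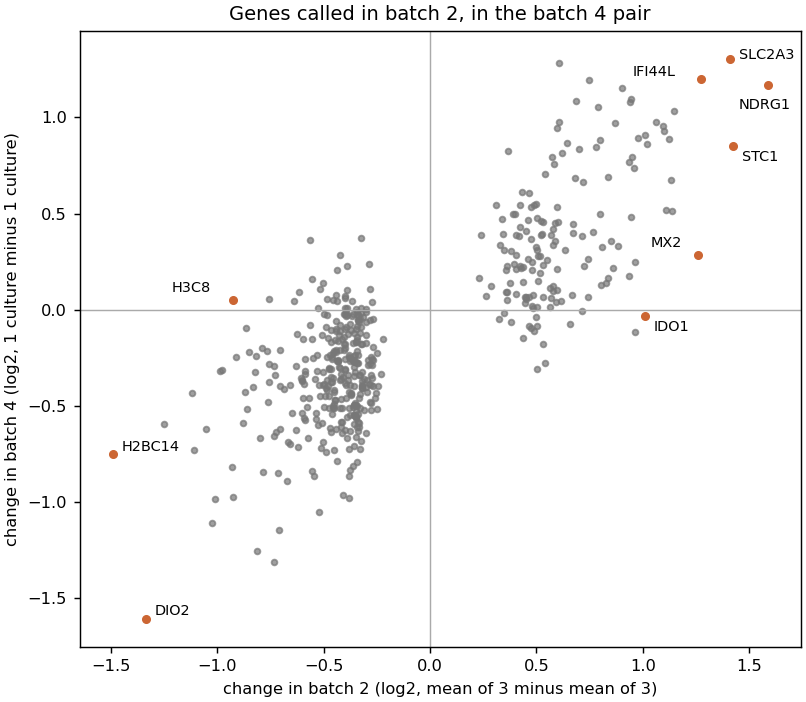
Change of the 494 called genes in batch 2 (log2, 3 minus 3 cultures, horizontal axis) and in the batch 4 pair (log2, 1 minus 1 culture, vertical axis); each point is a gene. Points lie mostly where both changes are above 0 or both below 0, 449 of 494 with the same sign.

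The response was then set against the 17 other replicated lines of batches 1 to 3, each at its own dose, by testing the OVCA433 change minus the mean change of those lines. Past an adjusted p of 0.05 in limma were 159 genes, 60 with a higher (0.326%) and 99 with a lower difference (0.538%), and 114 of the 159 were also called in OVCA433 itself. The higher count was 28, 26 and 39 without untreated culture 1, 2 or 3 and 27, 51 and 22 without cisplatin culture 1, 2 or 3. The lower count was 28, 37 and 64, and 33, 48 and 50. Without the 2 cultures of other lines that stood apart the counts were 96 and 144.

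NDRG1 had the largest higher difference among genes also called in OVCA433. NDRG1 changed by 0.22 on average elsewhere, a difference of 1.37 ± 0.16 (limma adjusted p = 1.76e-08). ASNS changed by -0.29 on average elsewhere and by 0.88 here, a difference of 1.17 ± 0.11 (limma adjusted p = 4.81e-12). OVCA433 had the highest change of 18 lines in both, followed by HeyA8 for NDRG1 (0.93) and TYK-nu for ASNS (0.60), and also in SLC2A3, MX2, DDIT4, AMIGO2, SERPINA3 and RSAD2. It was nearly matched in STC1 by HeyA8 (1.36) and in IFI44L by OVCA420 (1.22), differences smaller than the SEs given, and in PSAT1 (0.60) by IGROV-1 (0.52). Of the 20 integrated stress and unfolded protein genes 5 passed higher in the difference and 0 lower, and the list's median was -0.075 in the other lines. Of the 25 interferon-stimulated genes 5 passed higher (MX2, IFI44L, RSAD2, OAS2, IFI6), and the other lines' median was 0.23. OVCA420 changed more than OVCA433 in IFI6 (1.26), MX1 (1.09), IFIT1 (1.32) and OAS1 (1.17).

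The other end held DIO2, whose change averaged 0.012 in the other lines and ranged there from -0.25 to 0.31 (difference -1.35 ± 0.17, limma adjusted p = 2e-07). CA2 averaged 0.18 elsewhere against -0.79 here (limma adjusted p = 1.84e-05). Of the 34 replication genes 12 passed lower in the difference and 0 higher, and the median was -0.34 in OVCA433 against 0.019 in the other lines. MCM4 averaged -0.084 elsewhere (difference -0.62 ± 0.082, limma adjusted p = 3.4e-07). OVCA433 was not the lowest line in these genes: from the highest change it ranked 17 of 18 in MCM4 and MCM6, 16 in MCM2 and 15 in MCM5. HeyA8 fell further in all of them (MCM4 -1.12, MCM6 -1.78, MCM2 -0.97, MCM5 -1.11). Small nucleolar RNA genes passed lower in 6 of 176, against 0.538% of all genes. OVCA433 was the lowest line in SNORD34 (-0.87) and SNORA3B (-0.85). OVCA420 fell further in SNORD14E (-1.33 against -1.12 here) and SNORD14C (-0.88 against -0.72). HeyA8 did so in SNORD30 (-1.12 against -1.03) and OVCAR-8 in SNORA75 (-1.01 against -0.99). Among p53 targets 3 passed lower, TP53I3, SESN1 and POLH; TP53I3 and SESN1 were named after their values were seen. POLH, the polymerase that bypasses platinum adducts, averaged 0.50 elsewhere and 0.061 here (limma adjusted p = 0.00275). CDKN1A averaged 0.90 elsewhere, and its difference of -0.49 ± 0.15 did not pass (limma adjusted p = 0.111).

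**Figure D4:**
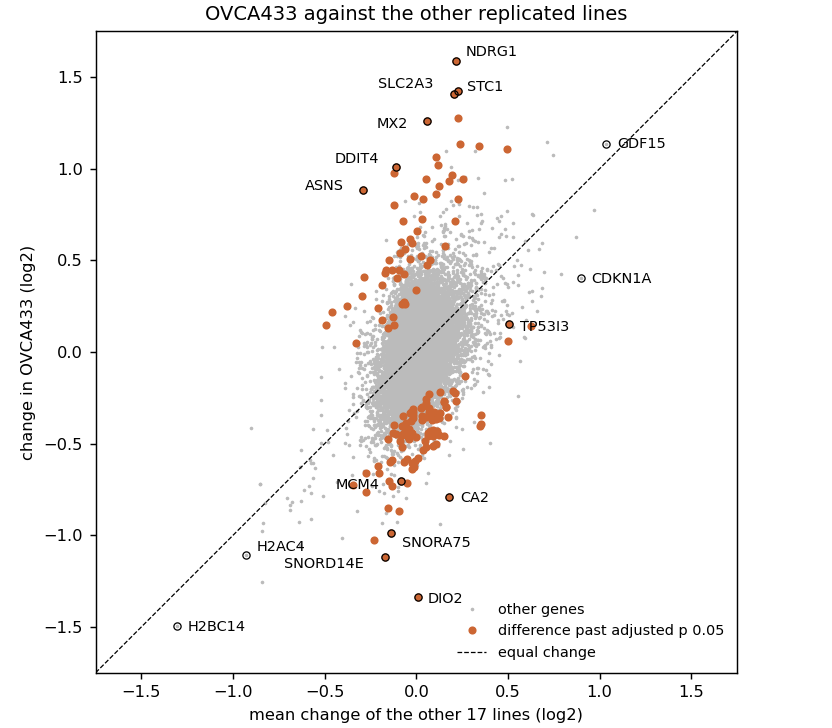
Change in OVCA433 (log2, vertical axis) against the mean change of the other 17 replicated lines (log2, horizontal axis); each point is a gene, orange where the difference passed an adjusted p of 0.05, and the dashed line marks equal change. NDRG1 and DIO2 lie far from the line near 0 on the horizontal axis, while H2BC14 and H2AC4 lie near the line.

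The histone list's median change was -0.54 for the mean of the other 17 lines and -0.62 here. Single lines departed from that mean: H2AC4 changed by 0.36 and H3C8 by 1.199 in FU-OV-1, and H3C12 by 0.44 in OVCAR-10 and 0.34 in TYK-nu. H2BC14 averaged -1.31 elsewhere, and the difference of -0.19 ± 0.17 did not pass (limma adjusted p = 0.816). Of 46 histone genes 0 passed lower in the difference, with 4 lower at an unadjusted p under 0.05, and 1 passed higher, H1-1 (0.22 here, -0.46 elsewhere), named after its values were seen. GDF15 was likewise at 1.04 elsewhere and 1.13 here, with a difference of 0.096 ± 0.24.

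The line nearest to OVCA433 before treatment was OVCA429, of batch 1, whose gene-centred untreated profile correlated with it at 0.69 over 18417 genes, against 0.16 for the next line. This comparison was added after the data were seen. The difference between the 2 lines' changes passed in limma for 62 genes higher in OVCA433 (0.337%) and 175 lower (0.95%), with batch and line not separable. The replication genes parted in the sign of their median change. Their median was -0.34 in OVCA433 and 0.33 in OVCA429, and 21 of 34 passed lower. MCM4 changed by 0.46 in OVCA429 against -0.71 in OVCA433 (difference -1.17, limma adjusted p = 7.66e-12), MCM6 by 0.18 and CCNE2, a cyclin of S phase entry chosen after its values were seen, by 0.76 against -0.39. CDKN1A changed by 1.26 in OVCA429 against 0.41 here (difference -0.86, limma adjusted p = 0.0137), and 6 of 34 p53 targets passed lower. ASNS parted the other way, at -0.47 in OVCA429 (difference 1.36, limma adjusted p = 2.45e-09), as did PSAT1 at -0.55 and VEGFA at -0.36. Of the 25 interferon-stimulated genes 0 passed in limma, with 4 higher and 1 lower at an unadjusted p under 0.05, and of the 46 histones 0 passed, with 3 higher and 1 lower. MX2, for one, was at 0.25 in OVCA429, a difference of 1.01 (limma adjusted p = 0.127).

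**Figure D5:**
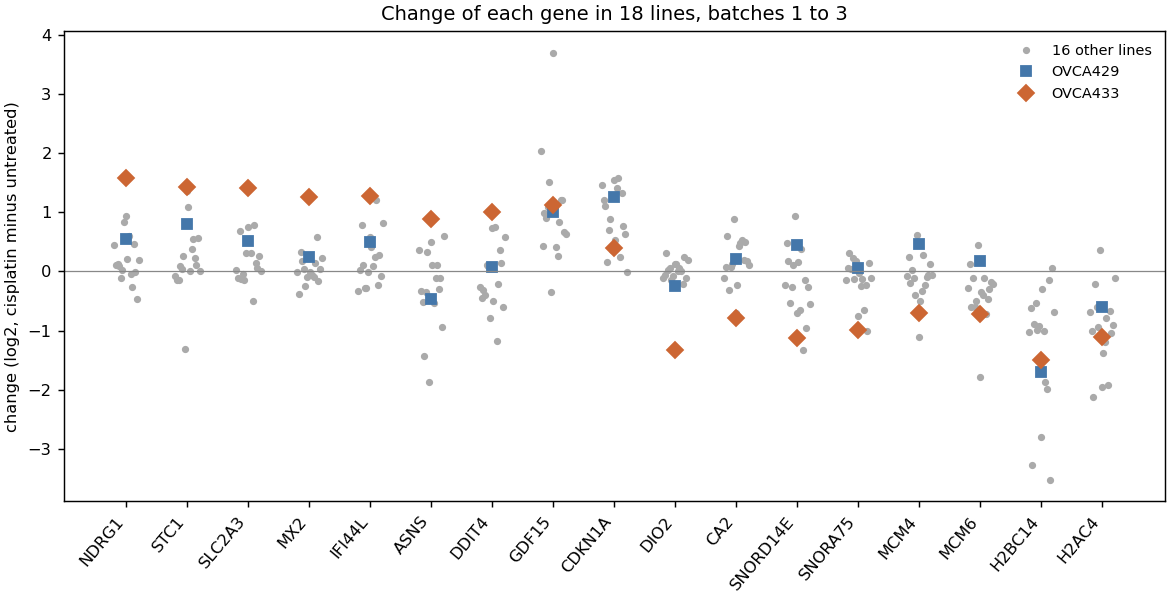
Change of 17 genes (log2, cisplatin minus untreated, vertical axis) in each of 18 lines of batches 1 to 3; diamonds are OVCA433, squares OVCA429 and grey points the 16 other lines. OVCA433 is the highest point in NDRG1, MX2 and ASNS and the lowest in DIO2 and CA2, where HeyA8 (-0.71) is near in CA2, and lies within the spread of the other lines in H2BC14 and H2AC4.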

How the data were processed

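Total RNA from the cultures was hybridised to Affymetrix arrays, and per the submitters' processing notes the authors deposited log2 expression values made by RMA, whose version is not given in the sources used here. Of 33297 probe sets, 19460 carried 1 gene symbol in the platform annotation, 1754 carried several and 12083 were not listed there; only those with 1 symbol were used, matched to RefSeq for 19429. For the 769 genes with several probe sets the one with the highest mean was kept, which left 18417 genes. Repeat arrays of a culture were averaged. The number of cultures limits the precision.

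A model of line, treatment and batch means was fitted with limma 3.58.1 (R 4.3.3) to 107 cultures of the 18 replicated lines of batches 1 to 3, with 71 residual degrees of freedom and Benjamini-Hochberg adjustment over all genes at 0.05. Contrasts were the OVCA433 change, that change minus the mean change of the other 17 lines, and, added after seeing the data, that change minus the OVCA429 change. The code was tested on simulated data. The members and gene lists were chosen with earlier results of these data known. Genes named were the 15 largest called changes in each direction with groups that did not overlap, the 10 largest in each direction also called in the difference, up to 4 called members of each list or 2 by level of a list with none, and 10 fixed genes. EGR1, CCNE2, TP53I3, SESN1, HSPA8, NCL, MX1, IFIT1, OAS1, OAS2, PPP1R15A, PCNA, RRM2 and H1-1 were named after their values were seen. Promoter sequences were available for 14239 genes. Alternatives changed the cultures in the model, the replicate block, the scaling, the filter on low genes, the probe set rule, the variance model and the minimum change.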

Additional observations from a re-analysis of the deposited data

Results flagged for a closer look

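The genes below had a cisplatin change in OVCA433 that differed from the mean change of the 17 other replicated lines, by limma's test of the difference itself with an adjusted p under 0.05; each value is that difference on the log2 scale. Higher differences included NDRG1 (1.37), STC1 (1.198), SLC2A3 (1.203), VEGFA (0.79), DDIT4 (1.12), ASNS (1.17) and PSAT1 (0.68). Among interferon-stimulated and immune genes they were IFI44L (1.05), MX2 (1.199), RSAD2 (0.90), OAS2 (0.69), IFI6 (0.61) and SLAMF7 (0.78). Other genes with a higher change in OVCA433 were SERPINA3 (1.10), AMIGO2 (0.96), ZSCAN5B (0.92), ARRDC3 (0.75) and H1-1 (0.68). ZSCAN5B was low, at 3.95 untreated and 4.75 with cisplatin, where the median untreated gene was at 6.63. Its call in OVCA433 was lost without untreated culture 3 or cisplatin culture 1 (limma adjusted p up to 0.151). H1-1 was not called in OVCA433 itself (0.22, limma adjusted p = 0.62). Lower differences were found in the replication and cell-cycle genes MCM4 (-0.62), MCM6 (-0.38), MCM2 (-0.55), PCNA (-0.42), CCNE2 (-0.74), E2F8 (-0.57), CDC25A (-0.50), NASP (-0.34) and BIRC5 (-0.41). In repair and p53 genes they were RAD54L (-0.42), BLM (-0.52), MDC1 (-0.44), POLH (-0.44), TP53I3 (-0.35) and SESN1 (-0.48). Small nucleolar RNA and ribosome biogenesis genes with lower differences were SNORD14E (-0.95), SNORA75 (-0.85), SNORD30 (-0.79), SNORD34 (-0.78), SNORA3B (-0.70), SNORD14C (-0.66) and NOLC1 (-0.37). Other genes with lower differences were DIO2 (-1.35), CA2 (-0.97), EGR1 (-0.69), BARX2 (-0.62), NFKBIE (-0.61) and ID3 (-0.58). The BIRC5 difference was -0.22 with the mean of its probe sets (limma adjusted p = 0.458). A difference from the mean does not make OVCA433 the extreme line. It was so in NDRG1, ASNS and DIO2 among others. C13 rose further in SLAMF7 (1.33 against 1.12 here) and OVCAR-8 in ARRDC3 (0.99 against 0.93). HeyA8 fell further in E2F8 (-1.20 against -0.52) and CCNE2 (-1.46 against -0.39).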

How the results depend on the processing

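Of the 30 largest changes, all 30 kept their call under centring, quantile normalization, array weights, averaged probe sets, trended variance, without the 2 cultures of other lines that stood apart, and with the replicate block within each line. They numbered 29 with the lines of batch 2 only, 27 with the OVCA433 cultures alone, 27 to 30 without single cultures, 16 at a minimum change of 1.2-fold and 15 with the replicate block on the 6 OVCA433 cultures, and 27 of the 27 that passed the filter on low genes. Genes called higher numbered 157, against 61 with the OVCA433 cultures alone, 259 without the 2 cultures that stood apart, 919 with array weights, 15 at a minimum change of 1.2-fold and 80 to 149 without single cultures. Genes called lower numbered 337, against 54, 1524 with array weights, 14 at the minimum change and 170 to 252. Genes with a higher difference numbered 60, against 255 with the lines of batch 2 only, 96 without the cultures that stood apart and 22 to 51 without single cultures. Those with a lower difference numbered 99, against 592 with the lines of batch 2 only, 175 with OVCA429 in place of the other lines, and 28 to 64. The share of called genes with the same sign in batch 4 was 90.9%, against 95.7% alone, 87.6% with the lines of batch 2 only, 78.4% with array weights, 96.6% at the minimum change and 88.4 to 92.5% without single cultures. The comparison with OVCA429 was not recomputed without single cultures. The smaller models have fewer cultures and residual degrees of freedom, and the cause of these shifts was not tested.

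The labels give both arms the same replicate numbers. Same-numbered deviations correlated at 0.058, 0.032 and -0.034, and different-numbered ones at -0.11 to 0.069. No shared effect of the number was seen, but with 3 cultures per arm this cannot settle whether same-numbered cultures were handled together. With the replicate block within each line 119 genes were called higher and 240 lower, and the differences numbered 32 and 43. With the replicate block on the 6 OVCA433 cultures alone 12 were higher and 7 lower, and 100% kept their sign in batch 4.

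Genes that missed the threshold and lay near 0 turned sign: RPS3 was 0.015, KRT80 -0.00597 and GAPDH 0.051 with array weights, KRT18 0.019 with averaged probe sets and CLDN5 -0.014 after quantile normalization. Without single cultures TNFRSF10B ran from -0.035 to 0.13, GSTP1 ran from -0.058 to 0.0039, ATP5F1B ran from -0.041 to 0.017, RPS3 ran from -0.12 to 0.10, KRT18 ran from -0.051 to 0.0095, KRT80 ran from -0.057 to 0.12, CLDN5 ran from -0.081 to 0.11, GAPDH ran from -0.053 to 0.031 and CDH1 ran from -0.077 to 0.027.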
